A study of Mus musculus with 12 samples.

Results

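The 4 genes described here, Ch25h, Cyp7b1, Hsd3b7 and Gpr183, make, degrade and sense an oxysterol that guides immune cells inside the lymph node. They were chosen by symbol from the 32285 genes of the deposited tables, and all 4 were found. Their UMI counts (unique molecular identifiers, which count captured RNA molecules) were read in 89054 cells of 12 libraries of single cells from the lymph nodes of mice. The mice were C57BL/6 of 7 to 10 weeks, all carried ATG12 fl/fl, a floxed allele of the autophagy gene Atg12, and all received tamoxifen 5 times. They were negative or positive for CDH5 CreER, a tamoxifen-dependent Cre driven by the promoter of the endothelial gene Cdh5. Their abdominal skin received 50 ul of 4% oxazolone, a contact sensitizer, with nodes taken at day 3 or day 7, or only the vehicle of acetone and olive oil at 3:1. Each combination of genotype label (Cre-negative, Cre-positive) and treatment gave 1 library of the cells that CD45 beads did not bind, here the CD31 fraction, and 1 of the bound cells, here the CD45 fraction. The labels give neither the number of mice behind a library nor whether both fractions came from the same mice.

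Ch25h is a hydroxylase that turns cholesterol into an oxysterol. Cyp7b1 hydroxylates that product further to the ligand of Gpr183 (EBI2), a receptor on B cells, T cells and dendritic cells, and Hsd3b7 converts the ligand to a form that the receptor does not sense. In lymphoid tissue stromal cells are known to make and clear the ligand, and Gpr183 helps to place activated B cells at the outer follicle and dendritic cells and T cells at the borders of the T zone.

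In the GENCODE annotation of GRCm38, Ch25h is a gene of 1 exon on the minus strand at chr19:34473778-34475164, overlapped by the opposite-strand lncRNA Gm26902. Cyp7b1 has 6 exons on the minus strand at chr3:18071950-18243338. Hsd3b7 lies on the plus strand at chr7:127800604-127803802, where the protein-coding gene Gm49388 overlaps it on the same strand. Gpr183 lies on the minus strand at chr14:121952551-121965195, within the span of the opposite-strand gene Ubac2. Gm26902 and Ubac2 have rows of their own in the count tables and Gm49388 has none. Whether the counting used strand is not given in the sources used here, so reads of Ch25h and Gpr183 cannot be told apart with certainty from those of the overlapping genes. For Hsd3b7 and Gm49388, on the same strand, no strand setting would separate them.

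The promoter windows of Ch25h, whose level differed by treatment, and of Gpr183, the receptor on the leukocytes, are shown because they differ in the motifs they hold; that of Hsd3b7 was searched too and is not printed. Each is the 250 bases before the RefSeq start on GRCm38.p6, 5′ to 3′ on the gene's strand, with motif matches in capitals.
Ch25h, chr19:34475149-34475398, minus strand: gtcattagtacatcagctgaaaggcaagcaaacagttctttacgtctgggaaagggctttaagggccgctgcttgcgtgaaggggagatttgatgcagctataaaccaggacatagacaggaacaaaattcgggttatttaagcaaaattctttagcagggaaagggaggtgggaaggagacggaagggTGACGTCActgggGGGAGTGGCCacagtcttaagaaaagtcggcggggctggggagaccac
Gpr183, chr14:121965194-121965443, minus strand: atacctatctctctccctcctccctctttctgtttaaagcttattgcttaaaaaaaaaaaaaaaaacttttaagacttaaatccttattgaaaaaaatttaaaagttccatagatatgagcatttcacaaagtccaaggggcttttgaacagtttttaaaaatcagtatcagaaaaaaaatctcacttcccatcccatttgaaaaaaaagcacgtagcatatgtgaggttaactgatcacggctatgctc
Both strands were searched for the letters of 5 motifs: CRE (TGACGTCA), AP-1 (TGANTCA), ISRE (GAAA, 2 bases of any kind, GAAA), STAT (TTC, 3 bases of any kind, GAA) and NF-kB (GGGA, 4 bases of any kind, CC). The Ch25h window held 1 CRE match, 61 bases before the start, and 1 NF-kB match, 48 bases before it, which do not overlap. CRE letters were found in 1.55% and NF-kB letters in 17.6% of 32851 RefSeq promoter windows of the same length. AP-1, ISRE and STAT letters were found in 6.75%, 2.98% and 7.02% of them. The Hsd3b7 window held 1 NF-kB match, 189 bases before the start, and 1 STAT match, 21 bases before it. The Gpr183 window held none of the 5. A match describes the letters and shows no binding.

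After filtering, the libraries held 5698 to 10553 cells and 30620953 to 59704284 UMIs. Any 2 of them shared 7 to 31 cell barcodes, at most 0.380% of the smaller. Germinal centre B-like and plasma-like cells (in the CD31 fraction 1 unnamed cluster led by immunoglobulin genes) together made up 3.22% and 4.50% of the CD31 and CD45 libraries labelled Cre-negative vehicle and 1.95% and 5.04% of those labelled Cre-positive day 7, against 0.0796% to 0.687% in the other 8. Libraries with these 2 labels therefore stood apart in both fractions. Xist was at 0.382 and 0.0751 CPM (UMIs per 1000000 UMIs) in the Cre-positive vehicle libraries and at 235 to 436 CPM in the others. The Cre-positive vehicle libraries therefore stood apart too, and in contrasts that use them this cannot be told apart from genotype and treatment. Atg12, the floxed gene, was at 46.1 to 52.5 CPM in blood endothelial-like cells of the Cre-negative and at 59.8 to 74.1 CPM in those of the Cre-positive libraries, so it was not lower with Cre; 3′ reads need not cover the deleted part. Of the 2594 cells of an unnamed CD31-fraction cluster with few UMIs (median 1349), 1960 lay in the Cre-positive day 3 library. Groups below follow the labels as deposited. No value here checks which treatment a library received, and whether the vehicle and day 7 labels of 1 genotype are exchanged was not tested, so every vehicle and day 7 value and contrast rests on its label. Cells were clustered without the 4 genes and named from marker genes, so each class is called "-like". B-like cells made up 12.8% of the CD31 fraction and T-zone reticular fibroblast-like cells 13.9% of the CD45 fraction.

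The 4 genes peaked in different cells. In the CD31 fraction Ch25h was highest in high endothelial venule (HEV)-like cells, which line the vessels through which lymphocytes enter the node. By mean level, Cyp7b1 was highest there in pericyte and smooth muscle-like and floor lymphatic-like cells, Hsd3b7 in ceiling lymphatic-like cells and Gpr183 in B-like cells. The Hsd3b7 range of cortical and medullary lymphatic-like cells overlapped that of ceiling lymphatic-like cells. In the CD45 fraction the reticular and adventitial fibroblast-like classes together held most UMIs of each enzyme on average, and B-like cells most of those of the receptor.

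**Figure D1:**
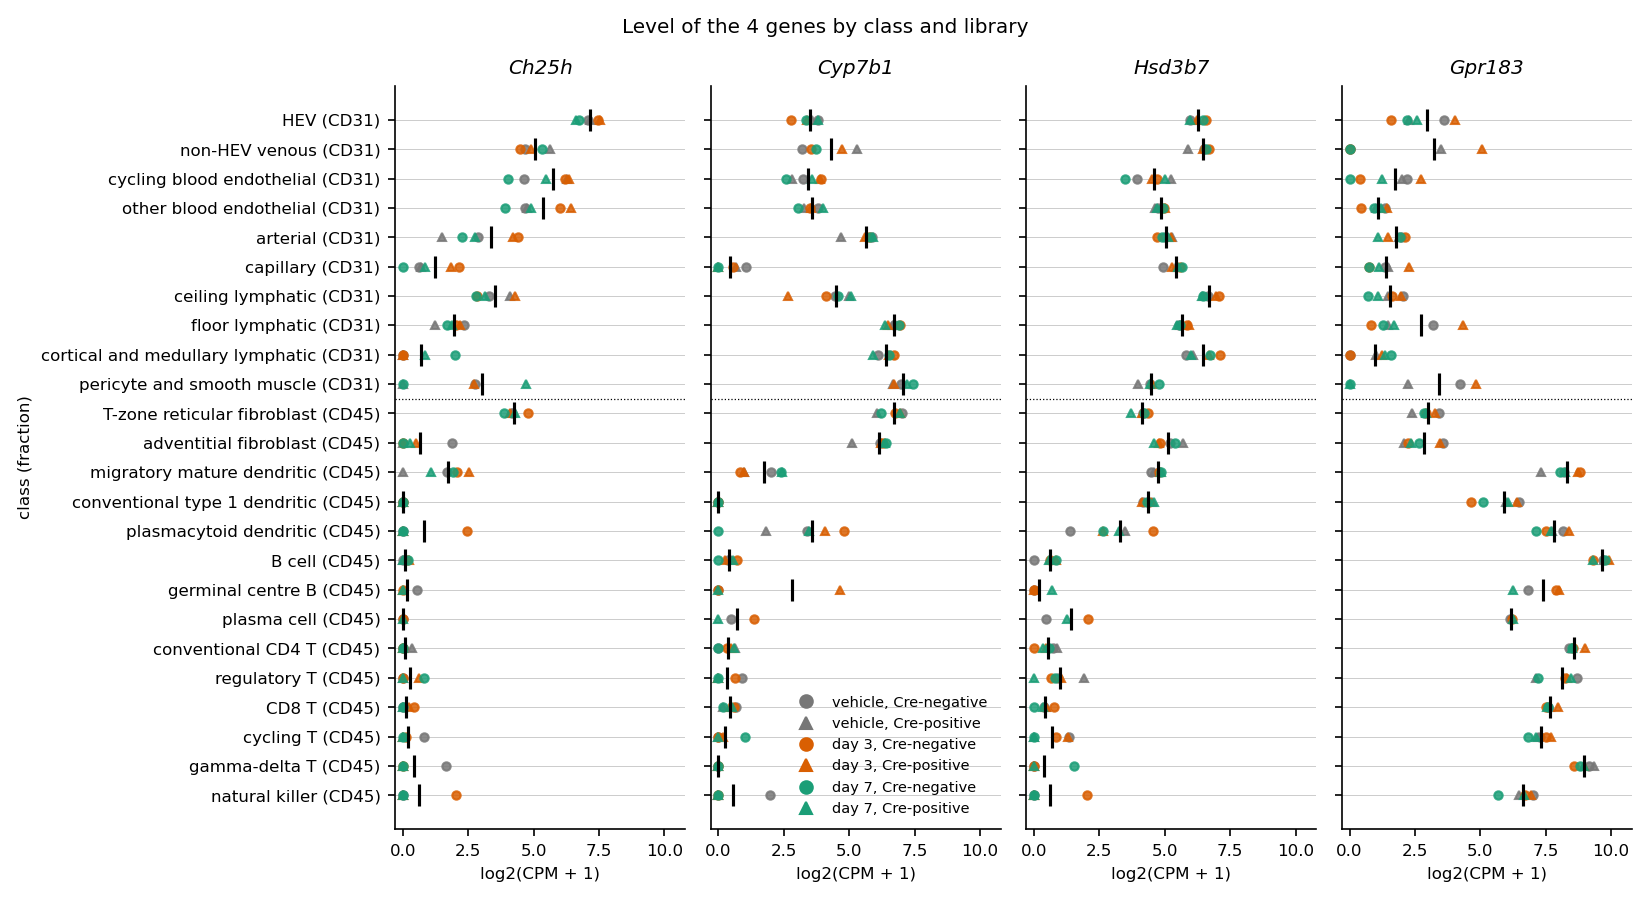
Level of each gene as log2(CPM + 1) in classes of the CD31 and CD45 fractions, 1 point per library with at least 20 cells of the class. By mean level, Ch25h lies highest in HEV, Cyp7b1 in pericyte, floor lymphatic and reticular fibroblast, Hsd3b7 in ceiling lymphatic and Gpr183 in B cells. Cortical and medullary lymphatic points overlap the ceiling lymphatic points for Hsd3b7.

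Ch25h was counted at 8818 UMIs in 3835 cells, of which 7590 UMIs lay in the CD31 fraction. HEV-like cells held 55.4% of the CD31-fraction Ch25h UMIs on average (37.8% to 79.4% by library) and were 6.10% of the cells. They reached 134 and 143 CPM in the Cre-negative and Cre-positive vehicle libraries, 176 and 186 CPM at day 3 and 105 and 98.1 CPM at day 7. Every HEV-like value lay above every value of the other CD31-fraction classes. A Ch25h UMI was found in 43.6% of HEV-like cells, or 10.0% after each cell was thinned to 1000 UMIs, and in 0.0864% of B-like cells, which should lack the gene. The median depth was 7025 to 10884 UMIs per cell in HEV-like and 2930 to 3617.5 in B-like cells.

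Other blood endothelial-like cells, which carry pan-endothelial genes but were assigned to no named subtype, held Ch25h at 24.2 and 25.5 CPM in the vehicle libraries, 62.6 and 84.7 CPM at day 3 and 13.8 and 29.1 CPM at day 7. Both day 3 libraries lay above the other 4. Arterial-like cells were at 6.35 and 1.82 CPM in vehicle, 20.1 and 17.7 CPM at day 3 and 3.78 and 5.75 CPM at day 7, again with both day 3 libraries highest, at 36 and 59 UMIs against 13 and 2 in vehicle. Cycling blood endothelial-like cells were at 24.0 and 76.1 CPM in vehicle, 72.6 and 79.7 CPM at day 3 and 15.0 and 43.2 CPM at day 7, where the Cre-positive vehicle library lay between the day 3 libraries. Capillary-like cells held at most 3.42 CPM and floor lymphatic-like cells at most 4.04 CPM. Venous-like cells other than HEV held Ch25h at 21.2 to 48.3 CPM in the 5 libraries with at least 20 of them. Ceiling lymphatic-like cells held 5.85 to 18.3 CPM. RNA outside cells, read from barcodes with at most 100 UMIs, held Ch25h at 17.1 to 40.8 CPM, a range that covers the arterial-like day 3 values. It was highest in the 2 day 3 libraries. Such a CPM value gives the make-up of RNA outside cells, not the amount that reaches a cell. The estimated share of this RNA among the UMIs of a fitted class was 0.992% in the median over classes and libraries (0% to 50%, the highest share allowed). With this RNA subtracted, the arterial-like day 3 change of Ch25h tested below was 2.15 on the log2 scale (edgeR adjusted p = 0.0122).

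The Ch25h level of HEV-like cells exceeded that of all other blood endothelial-like cells together in 6 of 6 libraries, by 2.40 ± 0.60 on the log2(CPM + 1) scale (SD, n = 6; exact two-sided sign-flip permutation test, p = 0.0312, the smallest that 6 libraries allow, or 0.0430 adjusted over the 11 class pairs run). Lymphatic endothelial-like cells differed from those other blood endothelial-like cells by -1.91 ± 0.73 for Ch25h and were lower in all 6 libraries (SD, n = 6; same exact permutation test, p = 0.0312, adjusted 0.0430).

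Treatment was tested with edgeR's quasi-likelihood test on UMIs summed per library and class, with 2 libraries per treatment that differ in genotype label. P-values measure the spread between these libraries and were adjusted over all genes of a class. Ch25h rose at day 3 against vehicle in other blood endothelial-like cells (log2 change 1.63 ± 0.20 SE, edgeR adjusted p = 0.0183), where 1.72% of 13395 genes were called. It also rose in arterial-like cells (2.09 ± 0.45 SE, adjusted p = 0.0125), where 4.23% of 10359 were called. In HEV-like cells the Ch25h change was 0.38 ± 0.14 SE (edgeR adjusted p = 0.170), where 0.953% of genes were called. A single fit over HEV-like and all other blood endothelial-like cells, with the library as a block, gave a difference between their day 3 changes of -1.21 ± 0.19 SE for Ch25h (edgeR adjusted p = 0.0279), with 0.292% of 14369 genes called. On the log2 scale the day 3 change was thus smaller in HEV-like cells than in that pool of classes. The changes in CPM were not compared. The shares of classes in the pool differed between libraries. Cycling blood endothelial-like cells numbered 96 and 30 in vehicle and 291 and 559 at day 3, and capillary-like cells 1216 and 1109 and then 1803 and 1108. With clusters drawn more finely (Leiden resolution 2), the HEV-like class also split. The cluster led by Syt1 and Nxph1 had 207 and 147 cells in vehicle and 276 and 482 at day 3. The cluster led by Glycam1 and Ccl21a had 172 and 223 and then 185 and 231. Ch25h is not given for them apart. The part of these shares in the difference was not tested, and the fit was not repeated with a library left out.

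With vehicle and day 7 joined into 1 group, a fit chosen after seeing the data that an exchange of these labels would leave with the same groups, the day 3 change of Ch25h was 1.77 in other blood endothelial-like (edgeR adjusted p = 0.00311) and 2.01 in arterial-like cells (adjusted p = 0.00262).

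With 1 library left out, 1 arm holds a single library, which is assumed to vary like the other groups, here and wherever a library is left out below. Without the Cre-negative or the Cre-positive day 3 library edgeR then called 0 and 0 genes in other blood endothelial-like, 45 and 0 in arterial-like and 0 and 5 in HEV-like cells (1817, 1242, 1325, 928, 1468 and 1262 had an unadjusted p under 0.05). In other blood endothelial-like cells the edgeR adjusted p of the day 3 change of Ch25h was 0.0504 without the Cre-positive vehicle, 0.305 without the Cre-negative day 3 and 0.476 without the Cre-positive day 3 library, at log2 changes of 1.30, 1.57 and 1.66. In arterial-like cells it was 0.0833, 0.209 and 0.433 without the same libraries, at 1.59, 2.29 and 1.99, and the change was 3.36 without the Cre-negative vehicle library. The other blood endothelial-like class held 3 clusters whose sizes differed between libraries, and Ch25h was higher at day 3 in each. In the largest, led by Prnd, it was at 23.1 and 26.9 CPM in vehicle, 65.0 and 99.1 CPM at day 3 and 11.2 and 29.6 CPM at day 7. In the one led by Penk it was at 19.4 and 10.4 CPM, 55.1 and 45.5 CPM and 10.2 and 19.1 CPM, and in the one with Apold1 and Atf3 among its leading genes at 33.2 and 30.4 CPM, 69.1 and 93.2 CPM and 20.9 and 37.2 CPM. Both day 3 values lay above the other 4 in all 3 clusters.

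**Figure D2:**
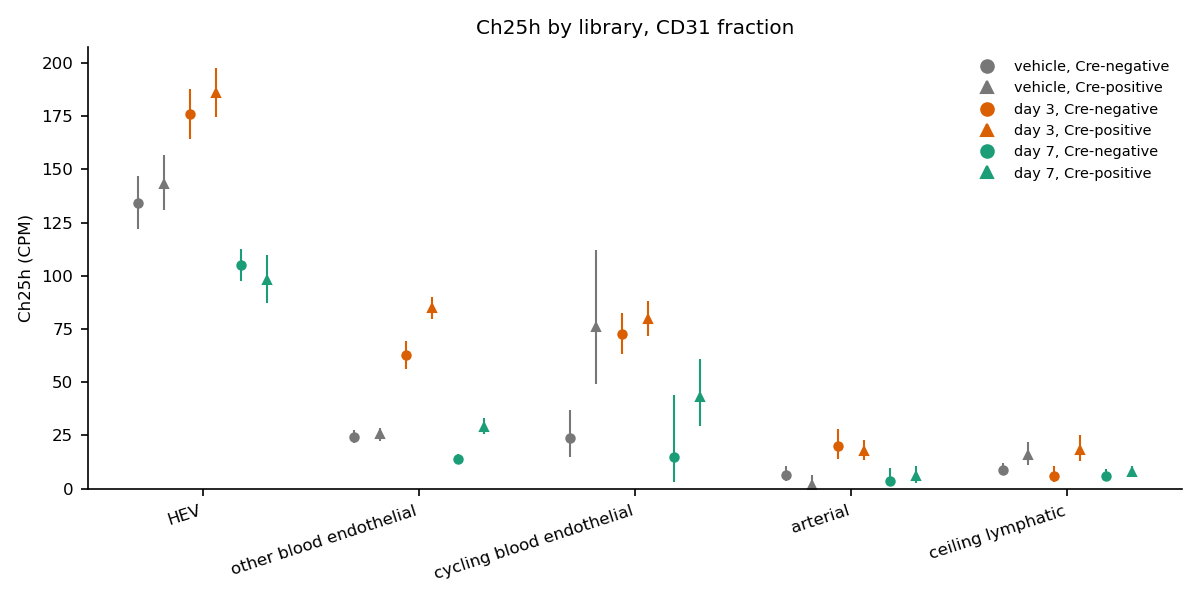
Ch25h in CPM for endothelial classes of the CD31 fraction, 1 point per library with its exact 95% Poisson interval, which covers counting error only. The HEV points, 98.1 to 186 CPM, lie above all others, and the day 3 points lie above vehicle and day 7 in other blood endothelial and arterial cells.

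At day 7, HEV-like cells held less Ch25h than in vehicle in both genotypes, but the change of -0.39 ± 0.15 SE had an edgeR adjusted p of 0.973. For the genotype label, other blood endothelial-like cells of Cre-positive libraries differed by 0.57 ± 0.16 SE (edgeR adjusted p = 1.00), where 0.0672% of genes were called. Of 39 Ch25h tests over 13 classes or groups of classes, 2 passed by edgeR, both at day 3, and 15 had an unadjusted p under 0.05. DESeq2 passed 4 of the 36 it gave an adjusted p. These tests overlap, since groups contain the cells of their classes. Of all genes, 2746 of 11646 in HEV-like and 2965 of 13395 in other blood endothelial-like cells had an unadjusted edgeR p under 0.05 at day 3. In lymphatic endothelial-like cells at day 7 it was 101 of 13293. Such counts for the other 3 genes below stand beside shares that vary as widely. In all blood endothelial-like cells but HEV together, edgeR called 0 of 14449 genes at day 3 (3295 had an unadjusted p under 0.05) and DESeq2 4.46%, Ch25h among them. Over all classes and the 3 comparisons, 0.172% of the tests of all genes were called.

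In the CD45 fraction, T-zone reticular fibroblast-like cells, which form the scaffold of the T zone, held 87.5% of the Ch25h UMIs. They fell into 2 clusters. The cluster led by Ccl19, Ccl21a and Fabp7 was at 60.8 and 48.7 CPM in the vehicle libraries, 28.7 and 16.6 CPM at day 3 and 34.5 and 70.4 CPM at day 7. Both day 3 values lay lowest, and the log2 change against vehicle was -1.25 ± 0.38 SE (edgeR adjusted p = 0.158), or -1.90 to -0.67 with 1 library left out (adjusted p from 0.0464 up). The cluster led by Igfbp3, Cxcl12 and Lepr held Ch25h at 1.83 to 11.6 CPM; it has none of the class markers among its leading genes, so the clusters are given apart. Their sizes moved with treatment: the Ccl19-led cluster had 85 and 120 cells in vehicle and 1025 and 773 at day 3, and the other 495 and 862 and then 153 and 167. The pooled Ch25h level, 13.5 to 26.7 CPM, mixes them in different shares. With clusters drawn more finely (Leiden resolution 2), cells that share leading genes with the Ccl19-led cluster lay apart. A cluster with Saa3 and Chl1 had 62 and 32 cells in vehicle and 893 and 681 at day 3. Another with Ccl19 and Ccl21a had 18 and 60 and then 90 and 38. Values of the Ccl19-led cluster can thus also mix kinds of cells in different shares, which was not tested. Ch25h was at 0.0690 CPM on average in B-like cells of the fraction. Follicular dendritic-like cells, the stroma of B follicles, held 44 of the 1228 Ch25h UMIs of the fraction. This was 4.40% on average (0.410% to 11.3% by library), while they were 0.254% of the cells. They numbered 114, with 4 to 49 per library, and their Ch25h was not tested.

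Cyp7b1, which makes the ligand, was counted at 12732 UMIs, 8318 of them in the CD45 fraction, where reticular fibroblast-like cells held 69.1%. The pooled Cyp7b1 level of reticular fibroblast-like cells, 66.5 to 127 CPM, also mixes the 2 clusters in different shares. In the Igfbp3-led cluster Cyp7b1 was at 148 and 66.8 CPM in vehicle, 112 and 111 CPM at day 3 and 72.5 and 128 CPM at day 7, and the Ccl19-led cluster is given below. Adventitial fibroblast-like cells, of vessel sheaths and capsule, were at 72.0 and 33.2 CPM, 77.2 and 72.5 CPM and 82.8 and 82.5 CPM in the same order. Both classes were lowest in the Cre-positive vehicle library. The pooled reticular class, whose larger cluster has the macrophage marker Apoe and none of the class markers among its leading genes, exceeded the adventitial class in 5 of 6 libraries, by 0.56 ± 0.40 log2 units (SD, n = 6; exact sign-flip permutation test, p = 0.0625, adjusted 0.0764), which does not pass; with cells thinned to 1000 UMIs it was 0.60 and passed (exact permutation test, adjusted p = 0.0491). Within the adventitial class the cluster led by Mgp, Sparcl1 and Apod held Cyp7b1 at 89.0 ± 14.2 CPM and a second cluster at 6.67 ± 5.70 CPM (SD, n = 6 each). Follicular dendritic-like cells, the stroma of B follicles, held 100.2 to 102 CPM in the 2 libraries with at least 20 of them. An unnamed cluster led by C1qa, Ccl8 and other phagocyte genes, which mixes several classes, held Cyp7b1 at 22.4 and 117 CPM in vehicle, 48.2 and 115 CPM at day 3 and 207 and 42.8 CPM at day 7. RNA outside cells held Cyp7b1 at 12.5 to 35.6 CPM in this fraction. A Cyp7b1 UMI was found in 43.1% of reticular fibroblast-like cells and 0.115% of B-like cells, at median depths of 5652 to 14508.5 and 2504 to 4276.5 UMIs.

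In the CD31 fraction Cyp7b1 separated the walls of the subcapsular sinus. Floor lymphatic-like cells, on the side of the follicles, held Cyp7b1 at 104 and 101 CPM in vehicle, 123 and 88.1 CPM at day 3 and 119.5 and 81.1 CPM at day 7. Ceiling lymphatic-like cells, on the side of the capsule, held 21.2 and 31.0 CPM, 16.4 and 5.31 CPM and 23.1 and 32.3 CPM in the same order. The ranges did not overlap. Cortical and medullary lymphatic-like cells lay near the floor, at 58.6 to 104 CPM. Among vessels, pericyte and smooth muscle-like cells held 130.5 ± 30.5 CPM (SD, n = 5), arterial-like cells 49.5 ± 12.8 CPM and HEV-like cells 10.2 ± 2.67 CPM (SD, n = 6 each). Lymphatic exceeded blood endothelial-like cells in 6 of 6 libraries by 2.16 ± 0.62 log2 units for Cyp7b1 (SD, n = 6; exact sign-flip permutation test, p = 0.0312, adjusted 0.0430). RNA outside cells held Cyp7b1 at 11.2 to 20.6 CPM in this fraction, near the HEV-like and ceiling lymphatic-like values.

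By edgeR 0 of 54 Cyp7b1 tests over 18 classes passed and 6 had an unadjusted p under 0.05. DESeq2 passed 1, that of all CD45-fraction cells together at day 3, where it called 8.48% of genes. In the Ccl19-led reticular cluster Cyp7b1 was at 50.2 and 64.9 CPM in vehicle, 105 and 123 CPM at day 3 and 81.7 and 95.9 CPM at day 7. Both day 3 values lay highest and both vehicle values lowest, at a log2 change of 1.00 ± 0.20 SE (edgeR adjusted p = 0.0985). The shift of finer clusters given above for the Ccl19-led cluster applies to these values too. In ceiling lymphatic-like cells the day 3 change of Cyp7b1 was -1.22 ± 0.39 SE (edgeR adjusted p = 0.401), with both day 3 values lowest. It was -2.41 without the Cre-negative day 3 and -0.40 without the Cre-positive day 3 library, and, with 1 library in the arm left short, it passed without the Cre-negative vehicle (-1.63, edgeR adjusted p = 0.0119) or the Cre-negative day 7 library (-1.25, adjusted p = 0.0498).

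Hsd3b7, which inactivates the ligand, was counted at 10913 UMIs, 8645 of them in the CD31 fraction. Ceiling lymphatic-like cells held Hsd3b7 at 100.4 and 87.8 CPM in vehicle, 133 and 124 CPM at day 3 and 87.7 and 84.0 CPM at day 7. Floor lymphatic-like cells held 45.5 and 47.4 CPM, 56.3 and 59.9 CPM and 47.2 and 43.0 CPM in the same order, below every ceiling value. The making and the degrading enzyme thus lay in opposite order in the walls of the sinus, a description for which no test was run. Cortical and medullary lymphatic-like cells held 55.8 to 136 CPM. HEV-like cells held 60.9 and 75.5 CPM, 95.5 and 73.9 CPM and 87.0 and 61.1 CPM, above the 23.9 to 30.9 CPM of other blood endothelial-like cells. Venous-like cells other than HEV held 58.7 to 103 CPM in 5 libraries, a range that overlaps that of HEV-like cells. RNA outside cells held Hsd3b7 at 28.3 to 44.0 CPM in the CD31 fraction, which overlaps the range of other blood endothelial-like cells and lies below that of HEV-like cells. Lymphatic exceeded blood endothelial-like cells in 6 of 6 libraries by 0.98 ± 0.32 log2 units for Hsd3b7 (SD, n = 6; exact sign-flip permutation test, p = 0.0312, adjusted 0.0430). Single classes did not all follow the order of these pools, since every HEV-like value lay above every floor lymphatic-like value.

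**Figure D3:**
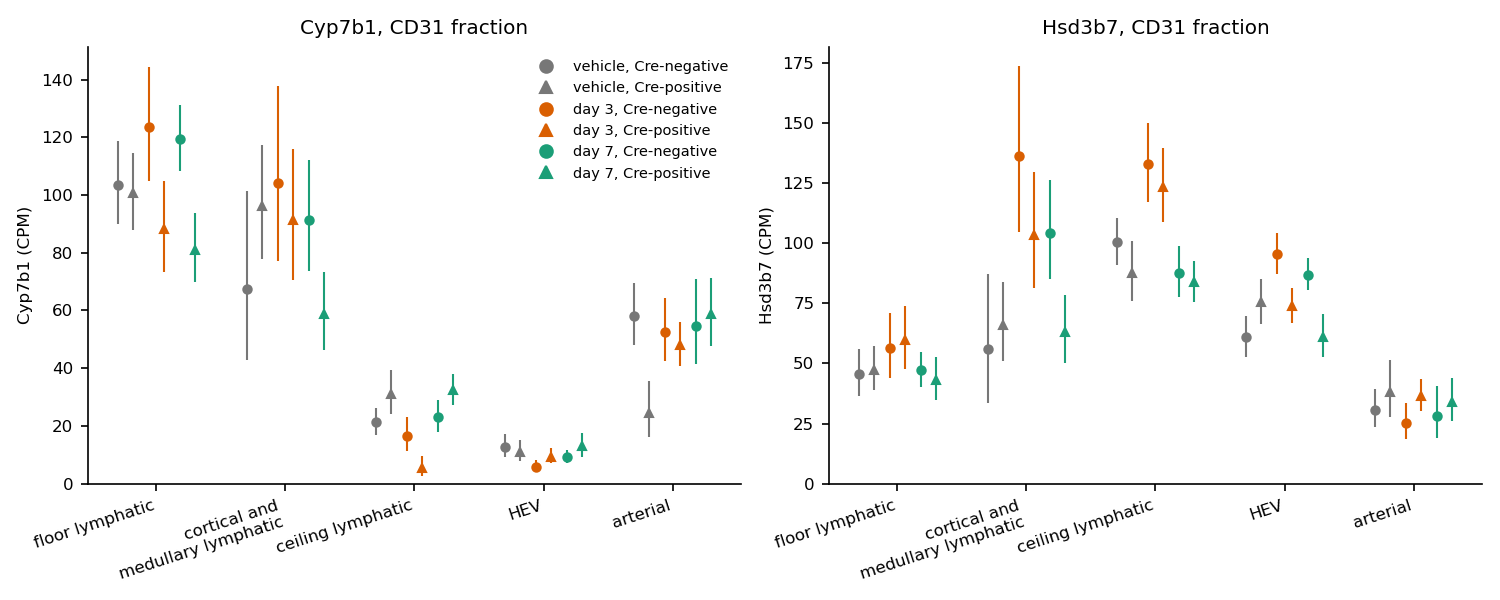
Cyp7b1 and Hsd3b7 in CPM for endothelial classes of the CD31 fraction, 1 point per library with its exact 95% Poisson interval for counting error. Floor lymphatic points lie above ceiling lymphatic points for Cyp7b1 and below them for Hsd3b7 in all 6 libraries.

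Immune classes with Hsd3b7 included dendritic cells. Migratory dendritic-like cells, which carry antigen from the skin to the node, held Hsd3b7 at 28.1 ± 5.66 CPM in the CD31 and 25.6 ± 2.93 CPM in the CD45 fraction (SD, n = 6 each). B-like cells held 1.19 and 0.520 CPM. The Hsd3b7 difference was 3.81 ± 0.70 log2 units in the CD31 and 4.15 ± 0.20 in the CD45 fraction, higher in 6 of 6 libraries in each (SD, n = 6; exact sign-flip permutation test, p = 0.0312, adjusted 0.0430). With cells thinned to 1000 UMIs the differences were 2.98 and 3.28, and neither passed (exact permutation test, each adjusted p = 0.0764). RNA outside cells held 5.31 to 12.0 CPM in the CD45 fraction, below these values, but the CD31-fraction level of migratory dendritic-like cells lies near that of RNA outside cells there. In the CD31 fraction macrophage-like cells held Hsd3b7 at 9.88 to 21.3 CPM in the 4 libraries with at least 20 of them, and an unnamed cluster of granulocyte genes at 20.8 to 33.9 CPM in 2, a range that overlaps that of migratory dendritic-like cells. Conventional type 1 dendritic-like cells held 16.4 to 23.1 CPM. Of the adventitial fibroblast-like clusters, the one low in Cyp7b1 held Hsd3b7 at 54.8 ± 16.6 CPM and the Mgp-led one at 26.8 ± 6.07 CPM (SD, n = 6 each). Follicular dendritic-like cells held 46 of the 2268 Hsd3b7 UMIs of the CD45 fraction, or 2.45% on average (0% to 5.45% by library).

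By edgeR 0 of 66 Hsd3b7 tests over 22 classes passed, 7 had an unadjusted p under 0.05, and DESeq2 passed 0. At day 3 the log2 change of Hsd3b7 was 0.90 ± 0.28 SE in cortical and medullary lymphatic-like cells (edgeR adjusted p = 0.303) and 0.39 ± 0.14 SE in other blood endothelial-like cells (adjusted p = 0.145).

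Gpr183, the receptor, was counted at 113800 UMIs in 30939 cells. B-like cells held 50.6% of its UMIs in the CD31 and 58.1% in the CD45 fraction. In the CD45 fraction their Gpr183 level was 821 and 851 CPM in vehicle, 627 and 963 CPM at day 3 and 872 and 635 CPM at day 7. In the CD31 fraction it was 750.3 and 856 CPM, 707 and 986 CPM and 918 and 705 CPM. The Cre-positive day 3 library was highest in both fractions, but in only 2 of the 5 B-like clusters that the CD45-fraction level pools. Of these clusters 2 have none of the class markers among their leading genes, and 1 of the 2 has Blk, a marker listed for gamma-delta T cells. After B-like cells, Gpr183 in the CD45 fraction was at 505 ± 90.2 CPM in gamma-delta T-like, 382 ± 62.0 CPM in conventional CD4 T-like and 315 ± 106 CPM in migratory dendritic-like cells (SD, n = 6 each). It was at 279 ± 113 CPM in regulatory T-like, 227 ± 69.6 CPM in plasmacytoid dendritic-like, 199.6 ± 25.5 CPM in CD8 T-like and 98.3 ± 27.7 CPM in natural killer-like cells (SD, n = 6 each). From B-like down to CD8 T-like cells, each class overlapped the next in its range over libraries. Germinal centre B-like cells held 75.6 to 254 CPM in 4 libraries, below every B-like value. RNA outside cells held Gpr183 at 90.2 to 158 CPM in the CD45 and 39.4 to 72.5 CPM in the CD31 fraction, and the natural killer-like mean lies in the former range. A Gpr183 UMI was found in 74.7% of these B-like cells and in 0.833% of blood endothelial-like cells, at median depths of 2504 to 4276.5 and 3392 to 4703.5 UMIs.

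Among B-like clusters of the CD45 fraction the mean Gpr183 level ran from 605 CPM in the largest to 972 CPM in the one led by Fcer2a. Their shares differed between libraries: the largest cluster, lowest in Gpr183, held 293 of 1937 B-like cells in the Cre-positive vehicle and 911 of 2685 in the Cre-positive day 7 library, so the pooled level also moves with these shares. Conventional CD4 T-like cells exceeded CD8 T-like cells in 6 of 6 libraries of each fraction, by 0.82 ± 0.17 log2 units in the CD31 and 0.93 ± 0.0907 in the CD45 fraction for Gpr183 (SD, n = 6; exact sign-flip permutation test, p = 0.0312, adjusted 0.0430). The CD8 T-like cluster with Gzmm and Eomes among its leading genes held Gpr183 at 301 ± 19.0 CPM and the Dapl1-led one at 160.4 ± 32.3 CPM (SD, n = 6 each).

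Regulatory T-like cells, which restrain immune responses, held Gpr183 at 415 and 138 CPM in vehicle, 304 and 320.4 CPM at day 3 and 146 and 353 CPM at day 7 in the CD45 fraction. In the CD31 fraction the values were 407 and 83.3 CPM, 269.5 and 336 CPM and 134 and 474 CPM. The Cre-positive vehicle and Cre-negative day 7 libraries were lowest in both fractions, and the 2 labels with many germinal centre B-like and plasma-like cells were highest; the part of that difference between libraries in the Gpr183 values was not tested. At Leiden resolution 2 the CD45 class, of 202 to 462 cells per library, narrowed to a cluster with Foxp3 and Il2ra among its leading genes, of 88 to 159 cells, where Gpr183 was at 231 and 112 CPM in vehicle, 337 and 290.3 CPM at day 3 and 107 and 178 CPM at day 7. Another cluster, named conventional CD4 T-like and sharing Izumo1r, Nrn1 and Tox with the leading genes of the wider class, ran from 135 to 411 cells and was largest in the Cre-negative vehicle and Cre-positive day 7 libraries. The CD31 class was not narrowed at this resolution (1106 and then 1141 cells). It kept Izumo1r, Tox and Sh2d1a beside Foxp3 and Ctla4 among its leading genes, and whether its values pool the same kinds of cells was not tested. In the narrower cluster the Cre-positive vehicle and Cre-negative day 7 values were still lowest, and both day 3 values were highest. Regulatory and conventional CD4 T-like cells differed by -0.59 ± 1.05 log2 units in the CD31 (SD, n = 6; exact permutation p = 0.250) and -0.55 ± 0.69 in the CD45 fraction (exact permutation p = 0.156, adjusted 0.172), which does not pass. With clusters drawn at Leiden resolution 2 both classes of the CD45 pair changed. The regulatory T-like class was narrowed, and the conventional CD4 T-like class held the cluster with Izumo1r, Nrn1 and Tox. The CD45 difference was then -0.96 and passed (exact permutation test, adjusted p = 0.0382).

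Migratory dendritic-like cells of the CD45 fraction held Gpr183 at 293 and 160.1 CPM in vehicle, 446 and 424 CPM at day 3 and 262 and 304 CPM at day 7. Both day 3 values lay highest there and, at 503 and 461 CPM, in the CD31 fraction. The log2 change was 0.96 ± 0.26 SE in the CD45 (edgeR adjusted p = 0.364) and 1.12 ± 0.47 SE in the CD31 fraction (adjusted p = 0.998). Without the Cre-negative vehicle library it was 1.43 and 2.08 and, with 1 vehicle library left, passed in both (edgeR adjusted p = 0.00674 and 0.000261), and without the Cre-positive vehicle library it was 0.54 and 0.43. By edgeR 0 of 111 Gpr183 tests over 37 classes or clusters passed, 7 had an unadjusted p under 0.05, and DESeq2 passed 0.

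**Figure D4:**
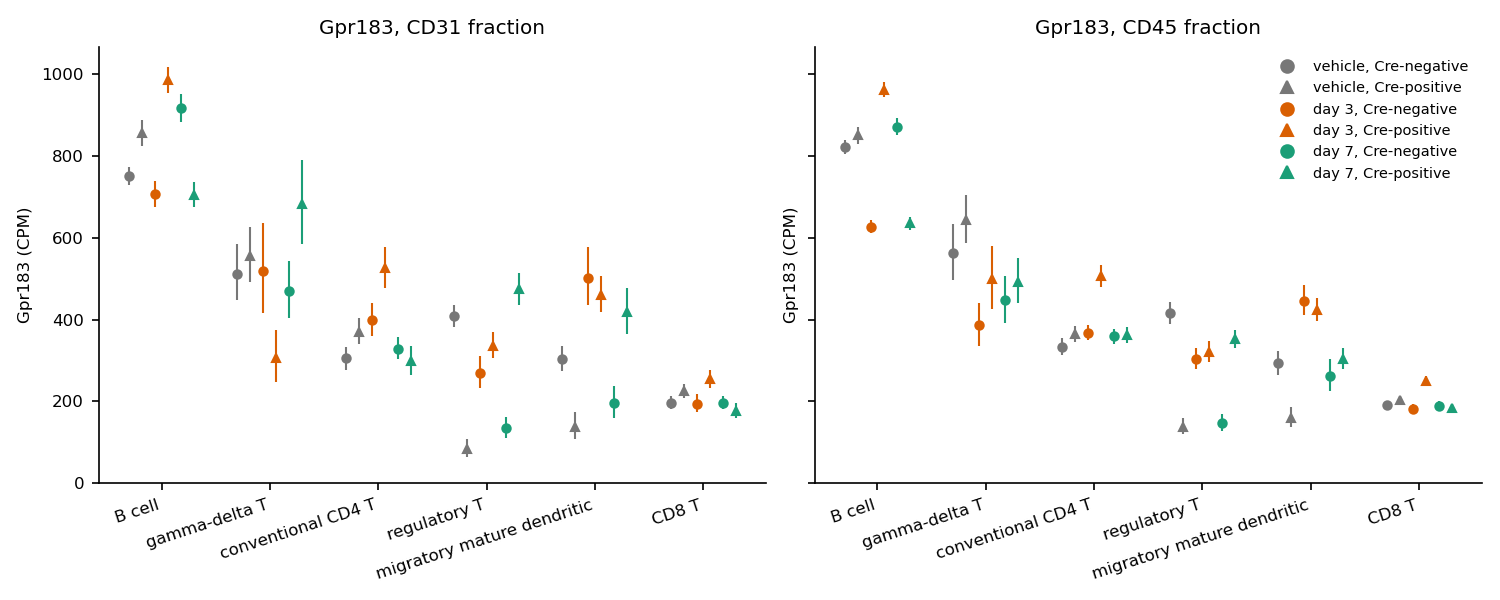
Gpr183 in CPM for immune classes of the CD31 and CD45 fractions, 1 point per library with its exact 95% Poisson interval for counting error. B cells lie highest, and the regulatory T points of the Cre-positive vehicle and Cre-negative day 7 libraries lie low in both fractions.

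Over 36 classes of both fractions, the log2 level of Gpr183 ran against that of the enzymes (Pearson r -0.70 with Ch25h, -0.72 with Cyp7b1 and -0.77 with Hsd3b7). The enzymes ran together (0.56 for Ch25h and Cyp7b1, 0.68 for Ch25h and Hsd3b7, 0.70 for Cyp7b1 and Hsd3b7). These describe classes that share libraries. Of 12152 genes, the 5 most like Ch25h over those classes by Pearson r were Fendrr (0.92), Ubd (0.90), Serpina1e (0.90), Foxf1 (0.90), Serpina1b (0.90); Ubd was among the HEV markers used for naming. The 5 most like Cyp7b1 were Evc2 (0.87), Fam20c (0.87), Hacd1 (0.87), Cpt1c (0.87), Mmp14 (0.86). The 5 most like Hsd3b7 were Tmtc3 (0.95), Cdc42bpb (0.94), Gas2l1 (0.94), Procr (0.94), Tmem205 (0.94), and the 5 most like Gpr183 were P2ry10 (0.96), Cytip (0.96), Clec2i (0.95), Dock2 (0.94), Arhgap45 (0.94). By Spearman's rho, 0, 0, 2 and 2 of these were again among the 5 closest to Ch25h, Cyp7b1, Hsd3b7 and Gpr183.

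Sterol-sensing genes, which include cholesterol synthesis genes that oxysterols are known to repress, were tested in the same fits. In other blood endothelial-like cells 2 of 20 tested rose at day 3 and 0 fell, with a median log2 change of 0.25 against -0.00254 over all genes, of which 1.72% were called. Idi1, of isoprenoid synthesis, was at 7.43 and 7.78 CPM there in vehicle, 20.4 and 17.7 CPM at day 3 and 8.07 and 7.84 CPM at day 7 (1.40 ± 0.17 SE, edgeR adjusted p = 0.0187). Cyp51, a sterol demethylase, rose by 1.09 ± 0.20 SE (edgeR adjusted p = 0.0437). The calls of Idi1 and Cyp51, and of Rora and Cxcr4 below, were lost in these cells without the Cre-negative day 3 (edgeR adjusted p 0.315 to 0.316) or Cre-positive day 3 library (0.476 to 0.542) and at Leiden resolution 2 (0.0572 to 0.0839). In HEV-like cells 3 of 19 rose and 0 fell (median 0.23 against -0.00251 over all genes, of which 0.953% were called): Idi1 (1.47), Cyp51 (1.45) and Insig1 (1.09), which holds back sterol-regulated transcription factors. These HEV-like calls were lost without the Cre-negative day 3 (edgeR adjusted p 0.302 to 0.312), the Cre-positive day 3 (0.199 to 0.338) or the Cre-positive vehicle library (0.0603 to 0.0825). In arterial-like cells Cyp51 rose by 1.43 ± 0.30 SE (edgeR adjusted p = 0.0119). This call, and those of Rora and Ephx1 in arterial-like cells below, were lost without the Cre-negative day 3 (0.0845 to 0.241) or Cre-positive day 3 library (0.261 to 0.739). In cycling T-like cells of the CD45 fraction 4 of 19 rose, led by Hmgcs1, an early enzyme of cholesterol synthesis (2.02 ± 0.25 SE, edgeR adjusted p = 0.0141), where 1.6% of all genes were called. Hmgcs1 rested there on 21 and 17 UMIs in the 86 and 40 vehicle cells. How these 4 calls hold with a library left out is not given here. In the Fcer2a-led B-like cluster of that fraction Idi1 (1.43 ± 0.20 SE, edgeR adjusted p = 0.00563), Cyp51 (1.42) and Hmgcs1 (1.16) rose, where 0.301% were called, and these calls were lost without the Cre-negative day 3 (0.574 to 0.730) or Cre-positive day 3 library (0.0620 to 0.396). In plasmacytoid dendritic-like cells 1 of 16 rose, Hmgcs1 (2.77 ± 0.48 SE, edgeR adjusted p = 0.0115), where 0.171% were called; it was lost without the Cre-negative vehicle (edgeR adjusted p = 0.520), Cre-positive vehicle (0.458) or Cre-negative day 3 library (0.0589) and with DESeq2 (0.524).

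Of oxysterol-binding nuclear receptors and their targets, 0 of 14 tested rose and 1 fell in other blood endothelial-like cells at day 3 (median -0.23, with 1.72% of all genes called), namely Rora, a sterol-binding nuclear receptor (-0.75 ± 0.15 SE, edgeR adjusted p = 0.0497). Rora was at 251 and 287 CPM there in vehicle and 164 and 138 CPM at day 3, and it fell in arterial-like cells too (-0.64, edgeR adjusted p = 0.0463). In immune cells Abca1, a cholesterol exporter, was the 1 of 12 tested of this list that fell at day 3 in the Fcer2a-led B-like cluster, with 0 up and a median of -0.10 against -0.00399 over all genes, of which 0.301% were called (-1.10 ± 0.18 SE, edgeR adjusted p = 0.0112), at 80.7 and 150.4 CPM in vehicle, 49.8 and 55.6 CPM at day 3 and 99.6 and 102 CPM at day 7. This call was lost without the Cre-negative day 3 (edgeR adjusted p = 0.574), Cre-positive day 3 (0.311) or Cre-positive vehicle library (0.208) and with DESeq2 (0.0773). Abca1, again 1 of 12, also fell in the Dapl1-led CD8 T-like cluster (-0.99 ± 0.18 SE, edgeR adjusted p = 0.0477), where 0.151% of all genes were called. There Rora was higher in Cre-positive libraries (0.72 ± 0.14 SE, edgeR adjusted p = 0.0300), with 0.963% of genes called. Both calls were lost without the Cre-negative day 3 (edgeR adjusted p = 0.0948 for Abca1 and 0.134 for Rora) or Cre-positive day 3 library (0.152 and 0.172), and that of Abca1 with RLE scaling (0.0506) or with the removed doublets kept (0.0560). Of receptors and signalling genes that act beside Gpr183, 0 of 9 rose and 1 fell at day 3 in other blood endothelial-like cells, the chemokine receptor Cxcr4 (-0.85 ± 0.13 SE, edgeR adjusted p = 0.0299). Of the other oxysterol and bile acid enzymes, 0 of 8 rose and 0 fell in HEV-like cells at day 3, where 0.953% of all genes were called. In arterial-like cells 1 of 7 of these enzymes fell, Ephx1 (-0.91 ± 0.18 SE, edgeR adjusted p = 0.00749), where 4.23% of all genes were called. In cycling T-like cells of the CD45 fraction Scd2, a fatty acid desaturase, rose (1.05) and Smpdl3a fell (-1.09), both lost without the Cre-negative day 3 library (edgeR adjusted p 0.132 to 0.276).

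For the genotype label, 1 of 8 of those enzymes passed in HEV-like cells, Ephx1, an epoxide hydrolase of the endoplasmic reticulum. Ephx1 was at 2.98, 1.998 and 2.25 CPM in Cre-negative and 21.01, 12.0 and 14.5 CPM in Cre-positive libraries for vehicle, day 3 and day 7. The groups did not overlap, and the log2 difference was 2.63 ± 0.23 SE (edgeR adjusted p = 0.0232), where 0.0258% of genes were called. In other blood endothelial-like cells the Ephx1 difference was 1.73 ± 0.14 SE (edgeR adjusted p = 0.00265). The Ephx1 call was lost in HEV-like cells without the Cre-negative day 3 (edgeR adjusted p = 0.119) or Cre-positive day 3 library (0.234), and in other blood endothelial-like cells without the Cre-positive day 3 library (0.0703) and at Leiden resolution 2 (0.114). No gene of the 4 lists passed at day 7.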

How the data were processed

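The authors deposited raw UMI counts per gene and barcode from 10x 3′ libraries, made with Cell Ranger 7.0.1 on mm10 per the submitters' processing notes; whether introns were counted is not given in the sources used here. A barcode counted as a cell from 1000 UMIs and 500 genes upward, if mitochondrial UMIs did not exceed 10%. Per library, the highest-scoring barcodes of a simulated-doublet score were removed (0.8% per 1000 barcodes, 4.78% to 9.31%), since the automatic threshold marked under 0.5% in 3 libraries. In 2 libraries the removed barcodes had fewer UMIs in the median than those kept (2203 against 3433 in CD31 Cre-positive day 3, 3932.5 against 4325 in CD31 Cre-negative vehicle), where doublets would have more. With removed barcodes kept, the day 3 change of Ch25h was 1.59 in other blood endothelial-like and 2.06 in arterial-like cells (edgeR adjusted p = 0.0284 and 0.0430). Cells of each fraction were clustered with scanpy 1.11.5 (2000 variable genes without the 4 members, 30 principal components, Leiden resolution 1) and named from fixed markers. Median depth was 3433 to 6193.5 UMIs per cell.

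Counts were summed per library and class with at least 20 cells in each library. They were fitted with edgeR 4.0.16 (quasi-likelihood, TMM scaling, filterByExpr, treatment plus genotype label, 2 residual degrees of freedom, Benjamini-Hochberg at 0.05; 43 fits per comparison). The SE given with an edgeR change was calculated as the absolute log2 change divided by the square root of its F statistic. Pairs of classes were compared over 6 libraries by exact sign-flip tests on log2(CPM + 1). Mean levels weight libraries equally, and intervals are exact at 95% and cover counting error only. Scripts were tested on simulated data. Alternatives were DESeq2 1.42.0, other scaling, filters, thinning, free RNA subtraction, Leiden resolution 2 and each library left out. Named genes were the 4 members, the 5 genes most like each, and up to 4 called genes per list and comparison. Genes of the lists were also called at day 3 in the pooled B-like and reticular fibroblast-like classes of the CD45 fraction. These calls are not named, since the clusters of those classes changed in share. The members and lists were chosen with earlier results of these data known. 1 gene of the lists is not reported here.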

Additional observations from a re-analysis of the deposited data

Results flagged for a closer look

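The day 3 change of Ch25h was smaller in HEV-like than in all other blood endothelial-like cells by a tested log2 difference of -1.21. The same contrast thus differed between HEV-like cells and a pool of classes whose shares differed between libraries. The HEV-like class also held finer clusters whose shares differed between libraries.

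Gpr183 moved in opposite directions in the 2 genotype labels in 3 comparisons of pooled classes, in both fractions and beyond the counting intervals; these differences between genotypes were not tested. In regulatory T-like cells the day 3 log2 difference from vehicle was -0.59 in Cre-negative and 1.998 in Cre-positive libraries of the CD31 fraction, and -0.45 and 1.21 in the CD45 fraction. The CD45 day 3 values were not opposite at Leiden resolution 2, where the class was narrowed to its Foxp3 and Il2ra cluster (0.54 and 1.37). That cluster held 88 to 159 cells per library against 202 to 462 in the wider class, which mixes kinds of cells in shares that differ between libraries. The CD31 class was not narrowed there, and its day 3 values stayed opposite (-0.59 and 1.98). At day 7 the regulatory T-like values were -1.60 and 2.49 in the CD31 and -1.50 and 1.35 in the CD45 fraction, and -1.11 and 0.66 in that narrower cluster. In B-like cells the day 7 values were 0.29 and -0.28 in the CD31 and 0.0868 and -0.42 in the CD45 fraction, whose 5 clusters changed in share between libraries. Cluster by cluster both values were opposite and beyond the counting intervals in 1 of the 5, led by Bank1 with Pax5 (0.19 and -0.43), and in the largest they were 0.11 and -0.34. The Cre-negative vehicle and Cre-positive day 7 labels in these contrasts are those with many germinal centre B-like and plasma-like cells, and that difference between libraries cannot be told apart from genotype and treatment here. Each Cre-positive value here is taken against the Cre-positive vehicle library, which has almost no Xist (0.382 CPM in the CD31 and 0.0751 CPM in the CD45 fraction). That difference cannot be told apart from genotype and treatment either. An exchange of the vehicle and day 7 labels of 1 genotype, which was not tested, would reverse the sign of its day 7 values. In the opposite day 7 pairs above, both genotypes would then share a direction. By the levels given in the Results, so would the opposite regulatory T-like day 3 pairs. These contrasts thus rest on the labels.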

How the results depend on the processing

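No paired analysis was possible because each group is 1 library, so no replicate numbers are shared between groups; libraries were pairs or blocks only between classes of the same library. Over 48 results and 668 alternative values, 581 kept their direction and side of the threshold or stayed uncalled, 57 lost and 30 gained a call, and 0 called values reversed. Of the 57, 48 were class pairs with 1 library left out, where 5 libraries allow no p under 0.0625. Those log2 differences ranged over 2.28 to 2.58 for Ch25h, HEV against blood endothelial other than HEV (CD31), -2.06 to -1.68 for Ch25h, lymphatic endothelial against blood endothelial other than HEV (CD31), 2.02 to 2.28 for Cyp7b1, lymphatic endothelial against blood endothelial (CD31), 0.77 to 0.86 for Gpr183, conventional CD4 T against CD8 T (CD31), 0.91 to 0.95 for Gpr183, conventional CD4 T against CD8 T (CD45), 0.92 to 1.09 for Hsd3b7, lymphatic endothelial against blood endothelial (CD31), 3.62 to 4.00 for Hsd3b7, migratory dendritic against B cell (CD31) and 4.09 to 4.19 for Hsd3b7, migratory dendritic against B cell (CD45). The 3 pairs not called ranged over 0.48 to 0.71 for Cyp7b1, T-zone reticular fibroblast against adventitial fibroblast (CD45), -0.84 to -0.28 for Gpr183, regulatory T against conventional CD4 T (CD31) and -0.73 to -0.39 for Gpr183, regulatory T against conventional CD4 T (CD45). With 1 library left out, the day 3 change of Ch25h ranged over 1.30 to 1.93 in other blood endothelial-like and 1.59 to 3.36 in arterial-like cells. In other blood endothelial-like cells it was 1.57 at Leiden resolution 2 (edgeR adjusted p = 0.0559). In all blood endothelial-like cells but HEV, Ch25h passed with DESeq2 (1.56) and not with edgeR (1.58, adjusted p = 0.0614). Thinning moved the Hsd3b7 difference of migratory dendritic-like and B-like cells to 2.98 (CD31) and 3.28 (CD45), and both lost their call (exact permutation test, each adjusted p = 0.0764), and the Cyp7b1 difference of reticular and adventitial cells to 0.60 (adjusted 0.0491). At Leiden resolution 2, where the cells of both classes changed, the Gpr183 difference of regulatory and conventional CD4 T-like cells in the CD45 fraction was -0.96 (adjusted 0.0382). The causes of these moves were not tested. Not run were 6 planned class pairs, in which a class was unnamed, too small or in the other fraction. Counts of all genes that rose and fell at day 3 were less stable: in other blood endothelial-like cells 153 and 78, but 1 and 0 at resolution 2, 61 and 29 with removed barcodes kept, 78 and 47 at 5% mitochondrial UMIs, 856 and 603 with no filter and 0 and 0 without either day 3 library. In arterial-like cells they were 232 and 206, 55 and 37 with DESeq2, 118 and 105 with removed barcodes kept and 0 and 0 without the Cre-positive day 3 library. In HEV-like cells they were 65 and 46, 129 and 160 with DESeq2, 819 and 676 with no filter and 0 and 0 without the Cre-negative and 3 and 2 without the Cre-positive day 3 library. At Leiden resolution 2 the untested Cre-negative day 3 difference of Gpr183 in CD45 regulatory T-like cells turned from -0.45 to 0.54. A fit that joined vehicle and day 7, chosen after seeing the data, gave 1211 and 512, 414 and 337 and 402 and 338 in the 3 classes; the fits per cluster and over HEV-like and other blood endothelial-like cells together were chosen then too.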
